A study of Mus musculus with 8 samples.

Results

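The lysosome and autophagy genes described here are a given list of 45, found by symbol among the 50600 genes of the count table. They code for the enzymes, membrane proteins and proton pump of the lysosome, for proteins that build the autophagosome, and for the 3 transcription factors TFEB, TFE3 and MITF. Of the 45, 44 reached 10 counts in 2 or more of the 8 libraries and were tested among 14497 such genes. The remaining gene was Ctss, which codes for cathepsin S, a protease of antigen-presenting cells. Ctss had 3 counts in the first capmatinib library of NF1-MET and 0 in the other libraries. Ctsf, counted among the 44, reached the count minimum only through its capmatinib libraries.

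RNA was sequenced from 2 mouse cell lines with 2 replicate libraries in each of 4 groups. NF1-MET is a line from a mouse malignant peripheral nerve sheath tumor (MPNST) that lacks Nf1 function, carries the inducible lox-stop-loxMET transgene with Plp-creERT, and has Met amplification and loss of Cdkn2a, all of which its derivative shares. NF1-MET;sgP53 was made from it with a lentiviral CRISPR vector carrying a guide against Trp53 and with puromycin selection; the labels call these genotypes WT and Trp53 KO. Cells of each line were cultured in medium with 10% FBS and received DMSO (vehicle) or 100 nM capmatinib, an inhibitor of the MET receptor kinase, for 24 h. Each genotype is represented by a single line, and whether the NF1-MET libraries came from the empty-vector control that the methods describe is not stated in the text of the sources used here (the labels say NF1-MET, and their column names begin with SEV, in which EV could mean empty vector). The effects of p53 loss, of the vector if only NF1-MET;sgP53 carries one, and of any other difference between the single lines cannot be told apart. The replicates are duplicate wells of a line, and p-values measure only the spread between them.

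Lysosomes degrade material delivered by endocytosis and autophagy in an acid lumen that a vacuolar proton pump maintains. In autophagy, the ULK1 complex and a lipid kinase complex with Beclin 1 start a double membrane, WIPI proteins and the ATG5 and ATG7 conjugation machinery extend it, and ATG8 proteins (the LC3 and GABARAP families) are attached to it and hold cargo receptors such as p62. TFEB, TFE3 and MITF bind the CLEAR element, an E-box with flanking bases found near the starts of many lysosomal genes, and their entry into the nucleus is restrained when the kinase mTORC1 is active on the lysosome. Activity of these factors is set largely by phosphorylation and location, which RNA levels do not measure.

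Several of these genes carry the core of that element close to a RefSeq transcription start. In RefSeq promoter windows (GRCm38.p6, 250 bases before to 50 bases after the start), 39 of the 45 genes had an entry among 27025 genes. The letters TCACGTG on either strand stood in 12 of the 39 (30.8%) and in 4.29% of all genes in that table, and the shorter E-box CACGTG, which lies inside those letters, stood in 15 of the 39 (38.5%) and in 8.09% of all genes. Counting only bases before the start, the shares were 25.6% against 3.58% and 33.3% against 6.86%. The stretches below are printed 5′ to 3′ on the strand of the gene, with the match in capitals (including the final A where the mirror-image letters also match). The starts used for Atg7 and Atp6v1a lie inside these genes as GENCODE annotates them, so their stretches are not upstream of the outermost start. The Gla stretch overlaps an annotated exon of another gene, so it is shorter and holds only the match nearest the start. The stretches were chosen because they hold the match for a lysosomal membrane protein, an acid hydrolase that rose with capmatinib, a second hydrolase, a subunit of the proton pump, a conjugation enzyme of autophagy and an enzyme whose gene fell.

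Lamp1, chr8:13159080-13159160, + strand, with 4 matches between 61 and 15 bases before the start: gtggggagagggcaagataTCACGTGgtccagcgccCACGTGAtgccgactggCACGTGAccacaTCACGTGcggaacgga

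Gaa, chr11:119267803-119267848, + strand: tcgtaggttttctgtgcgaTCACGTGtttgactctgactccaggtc

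Glb1, chr9:114401010-114401055, + strand: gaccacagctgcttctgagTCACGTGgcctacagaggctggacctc

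Atp6v1a, chr16:44139365-44139410, - strand: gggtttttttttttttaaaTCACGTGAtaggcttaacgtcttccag

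Atg7, chr6:114670944-114670989, + strand: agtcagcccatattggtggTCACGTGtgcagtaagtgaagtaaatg

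Gla, chrX:134601184-134601209, - strand: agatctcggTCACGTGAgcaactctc

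Lamp1 held 4 matches in its window, the largest number among these genes. Ctsa, Ctsd, Gla and Mcoln1 held 2 each, and Gaa, Glb1, Naglu, Atp6v0d1, Atp6v0e, Atp6v1a and Atg7 held 1. Ctsf, Ctsl and Atg5 had only the shorter E-box. A match describes the letters of the window and is not a measured binding site.

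**Figure D1:**
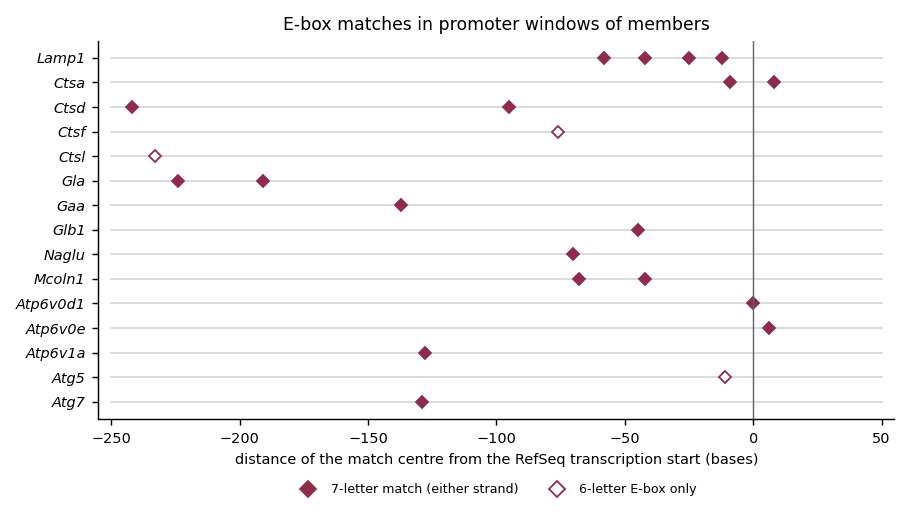
Positions of E-box matches in the promoter windows of the 15 genes that have one, as the distance in bases of the match centre from the RefSeq start. Filled diamonds hold the 7 letters on either strand and open diamonds only the 6-letter E-box; the 4 matches of Lamp1 lie within 61 bases before its start.

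The libraries held between 30.1 M and 42.8 M counts, of which the 45 genes took between 0.503% and 0.614%. Levels are given as counts per M of a library's counts (CPM) scaled by trimmed mean of M-values (TMM) factors over the 8 libraries. The guide's target, Trp53, was at 182 and 193 CPM in NF1-MET vehicle, 126 and 128 in NF1-MET capmatinib, 97.5 and 100 in NF1-MET;sgP53 vehicle, and 68.0 and 68.8 in NF1-MET;sgP53 capmatinib, so the line labelled Trp53 KO was lower in both treatments. A predicted gene, Gm42418, took between 1.11% and 13.1% of a library's counts and differed between replicates (10.0% and 1.11% in NF1-MET;sgP53 capmatinib). Of the cell type markers, the Schwann lineage list had Gap43 as its highest gene, 4 of 7 genes above the count minimum, and the lineage genes Sox10, S100b and Ngfr at no more than 0.492 CPM in any library. The summed level of that list was 21.2 to 21.3 CPM in NF1-MET vehicle and 6.36 to 6.43 in NF1-MET capmatinib, and 23.3 to 23.8 and 6.86 to 7.18 in the same treatments of NF1-MET;sgP53. Leukocytes are rich in lysosomes. The defining leukocyte genes Adgre1, Itgam and Fcgr1 had 0 counts in every library and Ptprc was at most 0.182 CPM, and the sum of the 8 leukocyte genes, most of it Cd14, was 10.1 to 10.9 and 6.74 to 7.41 CPM in vehicle and capmatinib of NF1-MET and 7.44 to 7.86 and 5.14 to 5.98 in NF1-MET;sgP53. Of the leukocyte genes, Cd14 was called lower after capmatinib in both lines, and Csf1r, the receptor of a macrophage growth factor, was called higher in both, with 7 and 9 counts in vehicle and 26 in each capmatinib library of NF1-MET, and 17 and 10 and then 26 and 30 counts in NF1-MET;sgP53 (log2 1.88, SE 0.44, and 1.14, SE 0.41). The part of either list in the results was not tested.

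The 44 tested genes spanned a wide range of levels before any drug. Per kilobase of exon, Psap, which codes for the precursor of the saposin activators of sphingolipid breakdown, was highest in NF1-MET vehicle at a mean of 268 CPM per kb. It was followed by Lamp1 at 162 and Sqstm1, the gene of the autophagy receptor p62, at 119. Ctsl was the highest protease gene at 78.1 CPM per kb, ahead of Ctsb at 72.4 and Ctsz at 67.1. At the low end were Neu1 at 1.49, Mitf at 1.09, Tfeb at 0.609 and Ctsf at 0.0694. Exon lengths count every annotated transcript, including retained introns, so these levels per length are lower limits for genes with long minor transcripts.

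**Figure D2:**
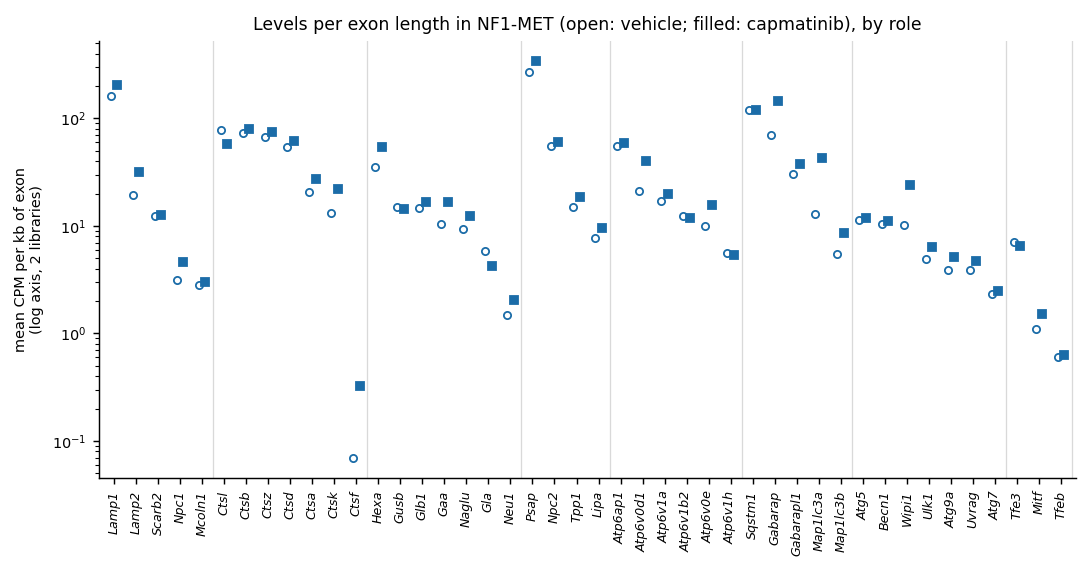
Mean level of each of the 44 tested genes in NF1-MET in CPM per kilobase of annotated exon (log axis, mean of 2 libraries), with open circles for vehicle and filled squares for capmatinib, ordered by level within each role. Psap lies at the top at 268 in vehicle and Ctsf at the bottom at 0.0694, and Map1lc3a rises from 13.01 to 42.7.

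Capmatinib was followed by higher RNA of most of these genes. In NF1-MET, 30 of the 44 tested genes were higher after capmatinib, 5 were lower and 9 did not pass edgeR's quasi-likelihood test (Benjamini-Hochberg adjusted p under 0.05). Of all genes tested in this comparison 70.2% were called, with 35.5% higher and 34.7% lower, so that 68.2% of the listed genes were higher against 35.5% of all genes. Their median log2 fold change was 0.29, and that of all genes tested was 0.0020. In NF1-MET;sgP53, 33 were higher, 4 lower and 7 not called, where 67.6% of all genes were called (34.2% higher and 33.4% lower), and the medians were 0.34 and 0.0049. The summed level of the 45 genes was 4891 to 4954 CPM in vehicle and 5856 to 5897 CPM in capmatinib of NF1-MET, and 4751 to 4879 and 5935 to 5943 CPM in NF1-MET;sgP53, with no overlap between treatments. In bulk RNA, fewer cells of a kind and less RNA per cell cannot be told apart.

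Scaling set part of these counts. With library totals in place of TMM factors, the median of all genes moved from 0.0020 to -0.18 in NF1-MET, and from 0.0049 to -0.12 in its derivative. The listed genes were then 20 higher and 9 lower in NF1-MET (all genes 24.2% higher and 44.0% lower) and 20 higher and 3 lower in NF1-MET;sgP53 (all genes 22.5% and 34.0%). Their median stayed 0.29 and 0.33 above that of all genes in the respective lines, as it did with TMM factors. The rises no longer called were those of Ctsb, Ctsd, Ctsz, Glb1, Tpp1, Npc2, Lipa, Atp6v1a, Gabarapl1 and Uvrag in NF1-MET, and of Lamp1, Ctsb, Ctsz, Glb1, Naglu, Tpp1, Npc2, Atp6v1a, Atp6ap1, Sqstm1, Gabarapl1, Becn1 and Uvrag in NF1-MET;sgP53.

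The libraries of the 2 lines are separate, and the calls can be set side by side. In both lines 30 of the 44 genes were higher, where 30.4% of all genes tested were higher in both, and 3 (Ctsl, Gla and Gusb) were lower, where 29.7% of all genes were. No gene was higher in one line and lower in the other. At least a 2-fold rise in both lines was seen for Map1lc3a, Wipi1, Gabarap and Ctsf, which is 4 of 44 (9.09%) where 8.8% of all genes tested rose as much in both lines. Ctsf is among the 4 though it reached the count minimum only through its capmatinib libraries. No gene of the list fell 2-fold in both, where 3.69% of all genes did.

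**Figure D3:**
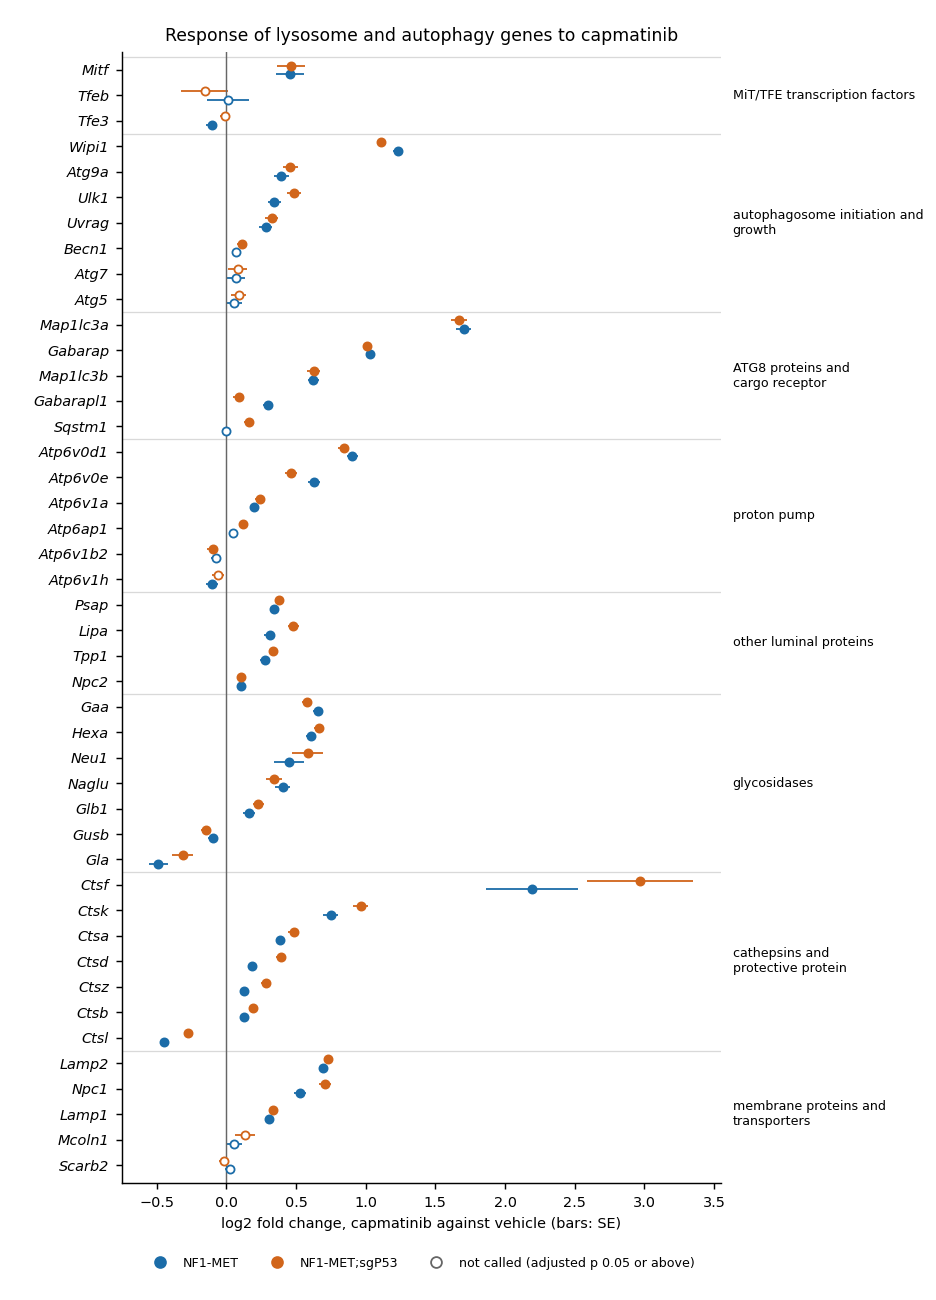
Log2 fold change after 24 h of 100 nM capmatinib for the 44 tested genes, grouped by role, in NF1-MET (blue) and NF1-MET;sgP53 (orange). Bars are standard errors from edgeR's quasi-likelihood test on 2 libraries against 2, filled points are called at an adjusted p under 0.05, and most points lie right of 0 with Ctsl and Gla to the left in both lines.

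The genes of the ATG8 proteins rose by very different amounts. Map1lc3a (chr2:155276297-155278073, + strand), which codes for LC3A and had the largest rise of the list in both lines after that of the scarce Ctsf, was at 15.4 and 15.3 CPM in NF1-MET vehicle and 48.7 and 52.1 in capmatinib, and at 15.1 and 13.9 and then 45.6 and 46.5 CPM in NF1-MET;sgP53. All 4 capmatinib libraries stood far above all 4 vehicle libraries. The log2 fold change was 1.70 (SE 0.05, adjusted p = 3.53e-23), a 3.25-fold rise, in NF1-MET and 1.67 (SE 0.06, adjusted p = 4.85e-17) in NF1-MET;sgP53.

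Gabarap (chr11:69991143-69994951, + strand), a member of the second ATG8 family, had 130 and 126 CPM in vehicle and 271 and 258 in capmatinib of NF1-MET. In NF1-MET;sgP53 it had 131 and 128 CPM, then 262 and 260. The groups did not overlap, and the rise was 2.04-fold (log2 1.03, SE 0.03, adjusted p = 4.51e-25) and 2.01-fold (log2 1.01, SE 0.03, adjusted p = 1.35e-17).

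Map1lc3b, the gene of the LC3B protein used as the usual marker of autophagosomes, had 42.0 and 40.2 CPM in vehicle and 64.9 and 63.3 in capmatinib of NF1-MET. In NF1-MET;sgP53 it had 39.0 and 39.8 CPM, then 57.3 and 64.4. The rises, 0.62 and 0.63 on the log2 scale, were smaller than those of Map1lc3a. Gabarapl1, from the same family as Gabarap, rose by 0.30 (SE 0.04) in NF1-MET and by 0.09 (SE 0.04, adjusted p = 0.0410) in NF1-MET;sgP53. The second of these calls is weak: it was kept with the stricter count minimum, with all libraries in 1 model and without the first vehicle or the first capmatinib library, and lost in the other 9 settings tried, the replicate block among them. The value was -0.04 with library totals. Exons of Gabarapl1 share 28.3% of their bases with a gene on the opposite strand, and whether the counts used strand is not given in the sources used here.

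Sqstm1 was called in 1 of the lines. In NF1-MET its levels were 402 and 395 CPM in vehicle and 405 and 398 in capmatinib, which overlap, and the log2 difference was -0.01 (SE 0.02, adjusted p = 0.821). In NF1-MET;sgP53 it had 351 and 340 CPM in vehicle and 387 and 385 in capmatinib, without overlap, a rise of 0.16 (SE 0.03, adjusted p = 4.87e-05) that was lost with library totals. The capmatinib libraries of NF1-MET;sgP53 were still below every library of NF1-MET. Exons of Sqstm1 share 17.3% of their bases with Mrnip on the opposite strand.

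Among genes for the start and growth of the autophagosome, 4 of 7 rose in NF1-MET (57.1%, against 35.5% of all genes) and 5 of 7 in NF1-MET;sgP53 (71.4%, against 34.2%). None was lower, where 34.7% and 33.4% of all genes were, and the medians were 0.28 and 0.32. Wipi1 (chr11:109573331-109611967, - strand), a phosphoinositide-binding protein of the growing membrane, had the largest rise. It was at 44.7 and 45.0 CPM in vehicle and 106 and 107 in capmatinib of NF1-MET, and at 51.0 and 49.7 and then 109 and 109 CPM in NF1-MET;sgP53. Replicates lay close together, the groups stood apart, and the rise was 2.35-fold (log2 1.23, SE 0.03, adjusted p = 7.57e-25) and 2.16-fold (log2 1.11, SE 0.03, adjusted p = 1.06e-17). Ulk1, the kinase that starts autophagy, rose by 0.34 and 0.48, Atg9a, a lipid scramblase of the early membrane, by 0.39 and 0.46, and Uvrag, a partner of Beclin 1, by 0.28 and 0.32 in the respective lines. Exons of Uvrag share 17.6% of their bases with Gm45187 on the opposite strand. Exons of Atg9a share 31.8% of their bases with Gm29253 on the same strand, so its reads could be split between them.

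The conjugation enzymes of the same pathway had small differences. Atg5, whose protein joins ATG12 to form part of the conjugating enzyme, had log2 differences of 0.05 (SE 0.05) and 0.09 (SE 0.05), and Atg7, the activating enzyme, 0.07 (SE 0.07) and 0.08 (SE 0.07) in the same order, none of which passed the test. Becn1, which codes for Beclin 1, had 0.07 in NF1-MET (adjusted p = 0.0630) and rose by 0.11 in NF1-MET;sgP53 (adjusted p = 0.00633). That call was lost with DESeq2's Wald test, with library totals (where the value was -0.01) and without the first vehicle library, and 43.9% of the exon bases of Becn1 lie in Cntd1 on the opposite strand.

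Genes of lysosomal membrane proteins were split between rises and near-constant levels. Lamp2, a heavily glycosylated protein of the limiting membrane with a part in chaperone-mediated autophagy, had 187 and 182 CPM in vehicle and 305 and 298 in capmatinib of NF1-MET. In NF1-MET;sgP53 it had 192 and 194 CPM, then 317 and 324. The groups lay well apart, and the log2 fold changes were 0.70 (SE 0.02, adjusted p = 6.45e-22) and 0.73 (SE 0.03, adjusted p = 1.93e-15). Lamp1, the abundant companion of Lamp2, had 435 and 434 CPM and then 546 and 542 in NF1-MET, and 461 and 444 CPM and then 574 and 566 in NF1-MET;sgP53. This is a 1.24-fold and a 1.26-fold rise without overlap, smaller than that of Lamp2; its call in NF1-MET;sgP53 was lost with library totals. Npc1, the membrane exporter of lysosomal cholesterol, rose by 0.53 and 0.71. Exons of Lamp1 and Npc1 share 9.31% and 4.52% of their bases with Grtp1 and Rmc1 on the opposite strand.

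Mcoln1, the calcium channel TRPML1, and Scarb2, the sorting receptor of glucocerebrosidase, were not called. Their log2 differences were 0.05 (SE 0.06) and 0.03 (SE 0.03) in NF1-MET and 0.13 (SE 0.07) and -0.02 (SE 0.04) in NF1-MET;sgP53. With library totals 4 genes that were not called with TMM factors were called lower in NF1-MET, namely Sqstm1 (-0.19, adjusted p = 0.00138), Scarb2 (-0.16, adjusted p = 0.0139), Atp6ap1 (-0.13, adjusted p = 0.0283) and Atp6v1b2 (-0.26, adjusted p = 9.02e-05). With TMM factors the 6 genes called lower in either line were Ctsl, Gla, Gusb, Atp6v1h, Atp6v1b2 and Tfe3.

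The proteases differed in direction. Of 7 tested genes in this group, 6 were higher (85.7%, against 35.5% and 34.2% of all genes in the respective lines) and Ctsl was lower in each line, with medians of 0.19 in NF1-MET (-0.00035 with library totals) and 0.39 in NF1-MET;sgP53 (0.27 with library totals). The 6 include Ctsf, which reached the count minimum only through its capmatinib libraries. Ctsk, a collagen-degrading cathepsin best known from osteoclasts, had 19.7 and 19.96 CPM in vehicle and 33.6 and 33.7 in capmatinib of NF1-MET. In NF1-MET;sgP53 it had 17.9 and 18.1 CPM, then 35.5 and 34.6. The groups did not overlap, and the log2 fold changes were 0.75 (SE 0.06) and 0.96 (SE 0.06).

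Ctsl (chr13:64359337-64370890, - strand), a broad cysteine endopeptidase and the most abundant protease gene of the list per kilobase in NF1-MET vehicle, moved the other way. It had 514 and 499 CPM in vehicle and 378 and 375 in capmatinib of NF1-MET, and 442 and 421 and then 368 and 347 CPM in NF1-MET;sgP53. All capmatinib libraries were below all vehicle libraries. The log2 fold change was -0.45 (SE 0.02, adjusted p = 8.89e-18) and -0.27 (SE 0.03, adjusted p = 1.48e-07), and the call was kept in every setting tried. Exons of Ctsl share 26.8% of their bases with Gm47123 on the opposite strand.

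Ctsd, the aspartic protease cathepsin D, had 128 and 125 CPM in vehicle and 142 and 149 in capmatinib of NF1-MET, a rise of 0.19 (SE 0.03) that became -0.00035 with library totals. In NF1-MET;sgP53 it had 114 and 110 CPM, then 148 and 146, a rise of 0.39 (SE 0.03). Exons of Ctsd share 34.4% of their bases with Gm49369 on the same strand. Ctsa, the protective protein of the galactosidase and neuraminidase complex, rose by 0.38 and 0.48; 10.5% of its exon bases lie in Pltp on the opposite strand.

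The cysteine proteases Ctsb and Ctsz rose by 0.12 and 0.13 in NF1-MET, where both were below 0 with library totals, and by 0.19 and 0.28 in NF1-MET;sgP53. Exons of Ctsb share 12.8% of their bases with Fdft1 on the opposite strand. Ctsf had the largest fold change of the list at the lowest level. Its counts were 9 and 18 in vehicle and 38 and 72 in capmatinib of NF1-MET, and 9 and 7 and then 69 and 49 in NF1-MET;sgP53, which is below 2 CPM in every library. The groups did not overlap, and the log2 fold changes were 2.19 (SE 0.33) and 2.97 (SE 0.38). Ctsf reached the count minimum only through its capmatinib libraries, so its place among the tested genes depends on its being high there.

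The glycosidases comprised 5 genes that rose (71.4%, against 35.5% and 34.2% of all genes) and 2 that fell (28.6%, against 34.7% and 33.4%), the same ones in both lines. Gaa, the glycogen-degrading acid alpha-glucosidase, had 48.7 and 51.5 CPM in vehicle and 82.0 and 78.3 in capmatinib of NF1-MET, and 58.9 and 57.3 and then 83.2 and 89.9 CPM in NF1-MET;sgP53. The log2 fold changes were 0.66 (SE 0.04) and 0.58 (SE 0.04), without overlap. Hexa, a beta-hexosaminidase subunit, rose by 0.60 and 0.66, Neu1, the lysosomal sialidase, by 0.45 and 0.58, and Naglu, an enzyme of heparan sulfate breakdown, by 0.40 and 0.34. Glb1, the beta-galactosidase whose activity is used as a stain for senescent cells, rose by 0.16 and 0.23 with TMM factors and was -0.02 in NF1-MET with library totals. Exon bases are shared by Hexa with Tmem202 on the opposite strand (12.8%) and by Glb1 with Tmppe on the same strand (5.49%).

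Gla (chrX:134588149-134601125, - strand), the alpha-galactosidase A that removes terminal galactose from glycolipids, fell. It had 19.0 CPM in each vehicle library and 13.8 and 13.7 in capmatinib of NF1-MET, and 20.4 and 17.6 and then 15.04 and 15.5 CPM in NF1-MET;sgP53. The vehicle replicates of NF1-MET;sgP53 differed by more than the others, and the groups still did not overlap. The log2 fold changes were -0.49 (SE 0.07, adjusted p = 1.68e-07) and -0.31 (SE 0.08, adjusted p = 9.10e-04). Gusb, the beta-glucuronidase, fell by 0.10 (adjusted p = 0.0162) and 0.15 (adjusted p = 0.00126) on the log2 scale, and the first of these calls was lost when any 1 of the 4 libraries was left out and with DESeq2's Wald test.

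All 4 other luminal proteins rose in both lines, where 30.4% of all genes did. Psap had 737 and 736 CPM in vehicle and 940 and 950 in capmatinib of NF1-MET, and 752 and 746 and then 967 and 980 CPM in NF1-MET;sgP53. These rises of 0.34 and 0.38 were without overlap. Lipa, the acid lipase that releases cholesterol from its esters, rose by 0.31 and 0.48, Tpp1, a tripeptidyl peptidase, by 0.28 and 0.34, and Npc2, the soluble cholesterol carrier, by 0.10 in both lines, with -0.08 and -0.02 for Npc2 under library totals.

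The genes of the proton pump differed in direction. Of the 6, 3 rose and 1 fell in NF1-MET (50% and 16.7%, against 35.5% and 34.7% of all genes), where the median was 0.12 with TMM factors and -0.06 with library totals, and 4 rose and 1 fell in NF1-MET;sgP53 (66.7% and 16.7%, against 34.2% and 33.4%), where it was 0.18. Atp6v0d1, which links the membrane ring to the rotor, had 38.8 and 36.7 CPM in vehicle and 71.1 and 71.6 in capmatinib of NF1-MET, and 41.3 and 40.0 and then 71.9 and 73.7 CPM in NF1-MET;sgP53. The groups lay far apart, at a 1.87-fold rise (log2 0.90, SE 0.04, adjusted p = 3.18e-19) and a 1.79-fold rise (log2 0.84, SE 0.04, adjusted p = 8.99e-15). Atp6v0e, a small membrane subunit, rose by 0.63 and 0.46.

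The cytosolic subunits changed little. Atp6v1a, the catalytic subunit, rose by 0.20 and 0.24, Atp6v1b2, its non-catalytic neighbour, was at -0.07 (not called) and -0.10 (called, adjusted p = 0.0259), and Atp6v1h, a regulatory subunit, at -0.11 (called, adjusted p = 0.0245) and -0.06 (not called). The calls of Atp6v1b2 and Atp6v1h were lost in at least 2 of the settings tried. Atp6ap1, an accessory subunit, was at 0.05 in NF1-MET and rose by 0.12 in NF1-MET;sgP53, a call lost with library totals.

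The calls of the 3 transcription factors differed. Tfeb was near the bottom of the range at 3.50 and 3.41 CPM in vehicle and 3.79 and 3.31 in capmatinib of NF1-MET, and 3.64 and 2.93 and then 2.55 and 3.28 CPM in NF1-MET;sgP53. The groups overlapped in both lines, with log2 differences of 0.01 (SE 0.15) and -0.16 (SE 0.17), so at these levels changes of that size were not detectable. Tfe3 (chrX:7762560-7775202, + strand), the most expressed of the 3, had 65.5 and 64.5 CPM in vehicle and 58.5 and 63.2 in capmatinib of NF1-MET, and 63.5 and 60.6 and then 59.7 and 63.4 CPM in NF1-MET;sgP53.

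The Tfe3 fall of 0.11 on the log2 scale in NF1-MET (SE 0.04, adjusted p = 0.0153) was lost without either vehicle library, without the first capmatinib library and with DESeq2's Wald test, and NF1-MET;sgP53 was at -0.01 with overlap. Mitf (chr6:97807052-98021349, + strand) had 7.19 and 6.29 CPM in vehicle and 9.40 and 9.27 in capmatinib of NF1-MET, and 5.79 and 5.97 and then 7.57 and 8.65 CPM in NF1-MET;sgP53. It rose by 0.45 (SE 0.10, adjusted p = 1.52e-04) and 0.46 (SE 0.10, adjusted p = 4.08e-04) without overlap. Of 5 markers of melanocytes, which depend on MITF, 4 had 0 counts in every library, and the list summed to at most 0.573 CPM.

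**Figure D4:**
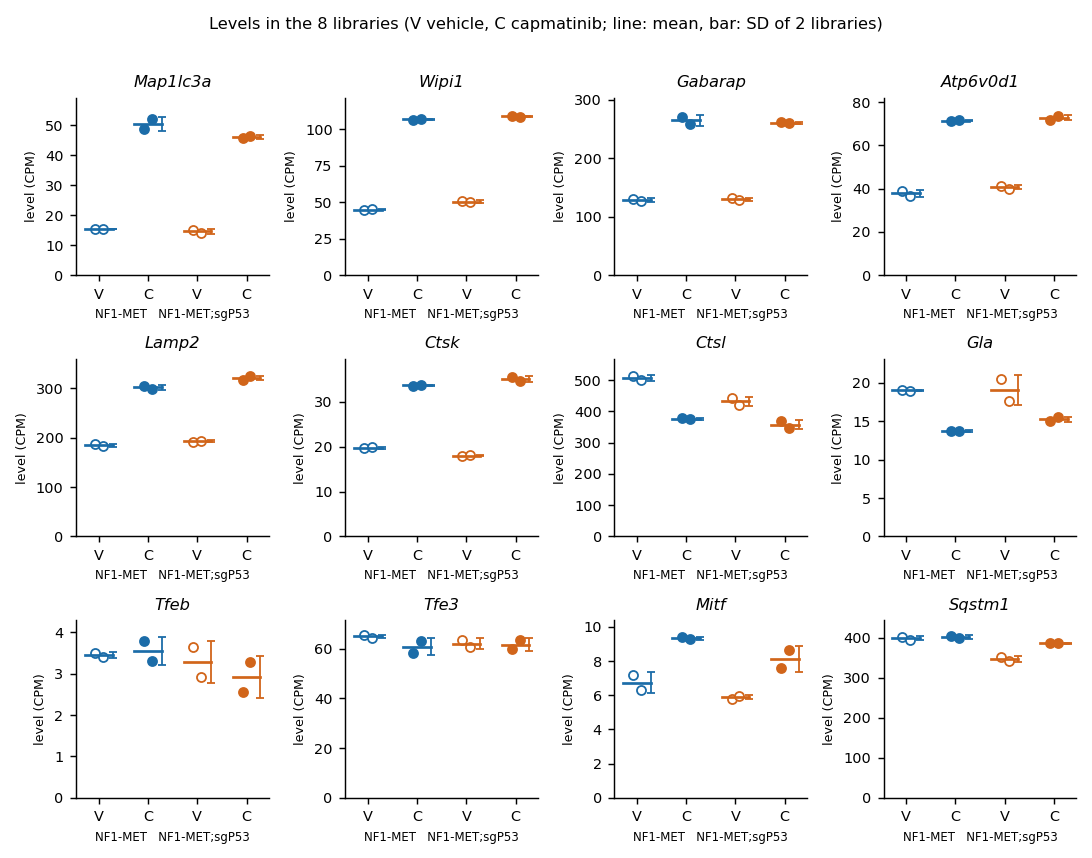
Level in CPM (axes from 0) of 12 genes in each of the 8 libraries, with open points for vehicle (V) and filled points for capmatinib (C), blue for NF1-MET and orange for NF1-MET;sgP53, a line at the mean and a bar of 1 SD. Map1lc3a, Wipi1, Gabarap, Atp6v0d1, Lamp2 and Ctsk stand higher in every capmatinib library, Ctsl and Gla stand lower, and the Tfeb groups overlap.

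Genes with the 7-letter match near their start had counts of calls like those of the others, and no test of this was run. Of the 12, 9 were higher and Gla was lower in each line, with median log2 fold changes of 0.25 and 0.34 for NF1-MET and NF1-MET;sgP53. The shares of all genes tested, for the lines in that order, were 35.5% and 34.2% called higher, with 34.7% and 33.4% called lower. The 26 tested genes with a promoter entry and no match had 18 higher and 3 lower in NF1-MET (median 0.30) and 20 higher and 2 lower in NF1-MET;sgP53 (median 0.36). Lamp1, with 4 matches, rose less than Lamp2, which has none. Wipi1 and Gabarap, each at least 2-fold higher, had no match in their windows, and Map1lc3a had no entry. Among genes with a match, the largest rises in NF1-MET were those of Atp6v0d1 (0.90), Gaa (0.66) and Atp6v0e (0.63). The same genes rose by 0.84, 0.58 and 0.46 in NF1-MET;sgP53.

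Further genes of the same pathways, which are not among the 45, moved unevenly. Of 32 further lysosomal hydrolases and cofactors, 28 were higher (87.5%) and 2 lower (6.25%) in each line, where 35.5% and 34.2% of all genes were higher in the respective lines, with medians of 0.56 and 0.64 for NF1-MET and NF1-MET;sgP53. Ctso, a cathepsin, rose by 1.64 and 1.55, Gm2a, the ganglioside activator, by 1.39 and 1.39, and Pla2g15, the lysosomal phospholipase, by 1.38 and 1.46. Ids, the iduronate sulfatase, was at 46.4 and 49.1 CPM in vehicle and 102 and 101 in capmatinib of NF1-MET, and at 60.0 and 62.0 and then 111 and 115 in NF1-MET;sgP53. The 2 lower genes, named after their values were seen, were Ctsh, a cathepsin (-0.50 and -0.39), and Dnase2a, the acid nuclease (-0.43 and -0.20). In contrast, the 19 tested further membrane and enzyme-sorting genes had 8 higher and 8 lower in NF1-MET (42.1% each, median 0.03), and in NF1-MET;sgP53 there were 7 and 7 (36.8% each, median -0.02), where 35.5% and 34.7% of all genes, and then 34.2% and 33.4%, were higher and lower.

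The 13 tested further proton pump subunits had 5 higher and 4 lower in NF1-MET (38.5% and 30.8%), near the 35.5% and 34.7% of all genes, and 8 higher and 1 lower in NF1-MET;sgP53 (61.5% and 7.69%, against 34.2% and 33.4%). Among 40 further autophagy genes, 21 were higher and 7 lower in NF1-MET (52.5% and 17.5%), and 21 higher and 8 lower in NF1-MET;sgP53 (52.5% and 20%). Rb1cc1, which codes for FIP200 of the ULK1 complex, rose by 1.42 and 1.41, with 67.7 and 67.6 CPM in vehicle and 184 and 181 in capmatinib of NF1-MET. Ulk2, the relative of Ulk1, rose by 0.83 and 0.85, more than Ulk1 itself, and the autophagy receptor gene Calcoco1 rose by 1.04 and 1.30. Of 22 tested genes of nutrient sensing upstream of TFEB and TFE3, 10 were higher and 5 lower in NF1-MET (45.5% and 22.7%), and 10 and 6 in its derivative (45.5% and 27.3%). The sestrin genes Sesn1, Sesn2 and Sesn3, whose products restrain mTORC1, rose by 1.14, 0.93 and 1.20 in NF1-MET and by 0.93, 1.09 and 0.98 in NF1-MET;sgP53. Others of the list fell, named here after their values were seen. Nprl3, of the GATOR1 complex that also restrains mTORC1, was at -0.62 (SE 0.06) and -0.58 (SE 0.07), and Rptor, which codes for the mTORC1 subunit raptor, at -0.55 (SE 0.04) and -0.42 (SE 0.03) for NF1-MET and its derivative. Rragd, a Rag GTPase gene at under 2 CPM, had the lowest value of the list at -1.10 (SE 0.32) in NF1-MET;sgP53 and 0.01 (SE 0.39, not called) in NF1-MET.

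Fewer of these genes were called between the lines than after capmatinib; each of these comparisons shares libraries with the ones above. In vehicle, 4 of the 44 genes were higher and 8 lower in NF1-MET;sgP53 than in NF1-MET, where 23.2% of all genes tested were called (10.9% higher and 12.3% lower). The median was -0.05 for the list and 0.0024 for all genes. The 4 higher were Scarb2 (0.23), Gaa (0.19), Wipi1 (0.15) and Atp6v1a (0.09). The 8 lower were Mcoln1 (-0.28), Ctsl (-0.25), Sqstm1 (-0.23), Ctsd (-0.19), Tpp1 (-0.19), Ctsz (-0.12), Ctsa (-0.11) and Atp6ap1 (-0.10). With library totals 3 were higher and 1, Ctsl, was lower, while all genes went from 1580 higher and 1775 lower to 1280 and 743. Without the first vehicle library of NF1-MET or the second of NF1-MET;sgP53, the calls of Ctsa, Ctsz and Atp6ap1 were lost. The median of the list was then -0.02 and 0.0075, in that order.

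Of the 7 tested cathepsins and their protective protein, 4 (Ctsl, Ctsd, Ctsz and Ctsa) were lower in this comparison (57.1%, against 12.3% of all genes) and none was higher. Of these calls, that of Ctsl was kept in every setting tried. Those of Ctsd, Ctsz and Ctsa were lost with library totals, and those of Ctsz and Ctsa also with DESeq2's Wald test. Ctsl was below the range of NF1-MET vehicle in both NF1-MET;sgP53 vehicle libraries (442 and 421 against 514 and 499 CPM, log2 difference -0.25, SE 0.03, adjusted p = 4.82e-07). Scarb2 was at 77.8 and 76.8 CPM in NF1-MET vehicle and 91.9 and 91.5 in NF1-MET;sgP53 vehicle, a difference of 0.23 (SE 0.03, adjusted p = 1.34e-05) that was called in every setting tried. Mcoln1 had 21.5 CPM in each NF1-MET vehicle library and 17.1 and 18.8 in NF1-MET;sgP53 vehicle (-0.28, SE 0.06, adjusted p = 0.00342), and this call was lost without the library at 17.1 and with library totals.

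In capmatinib, 4 of the 44 were higher and 5 lower in NF1-MET;sgP53, where 12.3% of all genes tested were called (5.94% higher and 6.34% lower), and the medians were 0.02 for the list and -0.0010 for all genes. Scarb2 was again higher, at 80.0 and 79.2 CPM in the NF1-MET libraries against 92.4 and 88.7 in those of NF1-MET;sgP53 (0.19, SE 0.03, adjusted p = 4.98e-04). Atp6v1a (0.14), Hexa (0.11) and Lamp2 (0.09) were the other higher genes, and Mcoln1 (-0.19), Atp6v0e (-0.13), Map1lc3a (-0.13), Tpp1 (-0.12) and Gabarapl1 (-0.11) were lower. Leaving out single libraries gave medians of 0.017 to 0.025 for the list, and the calls of Hexa and Lamp2 were each lost in some of these fits. Library totals left Scarb2 as the called gene, with all genes going from 860 higher and 918 lower to 537 and 129.

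Scarb2 and Atp6v1a were called higher and Mcoln1 and Tpp1 lower in NF1-MET;sgP53 in both treatments, and of these calls those of Scarb2 were kept in every setting tried. In capmatinib none of the 5 lower calls was. The call of Mcoln1 there was lost when any 1 of the 4 libraries was left out, and that of Tpp1 without the first capmatinib library of NF1-MET or the second of NF1-MET;sgP53. Both were also lost without the count minimum, with library totals and with DESeq2's Wald test. The capmatinib call of Atp6v1a was lost with library totals, and its vehicle call was lost there and with the Wald test. Ctsl, Sqstm1, Ctsd, Ctsz, Ctsa and Atp6ap1 were called lower in vehicle and not in capmatinib, where they were at -0.07, -0.06, 0.02, 0.03, -0.01 and -0.02. Whether these pairs of values differ is the question of the interaction below.

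**Figure D5:**
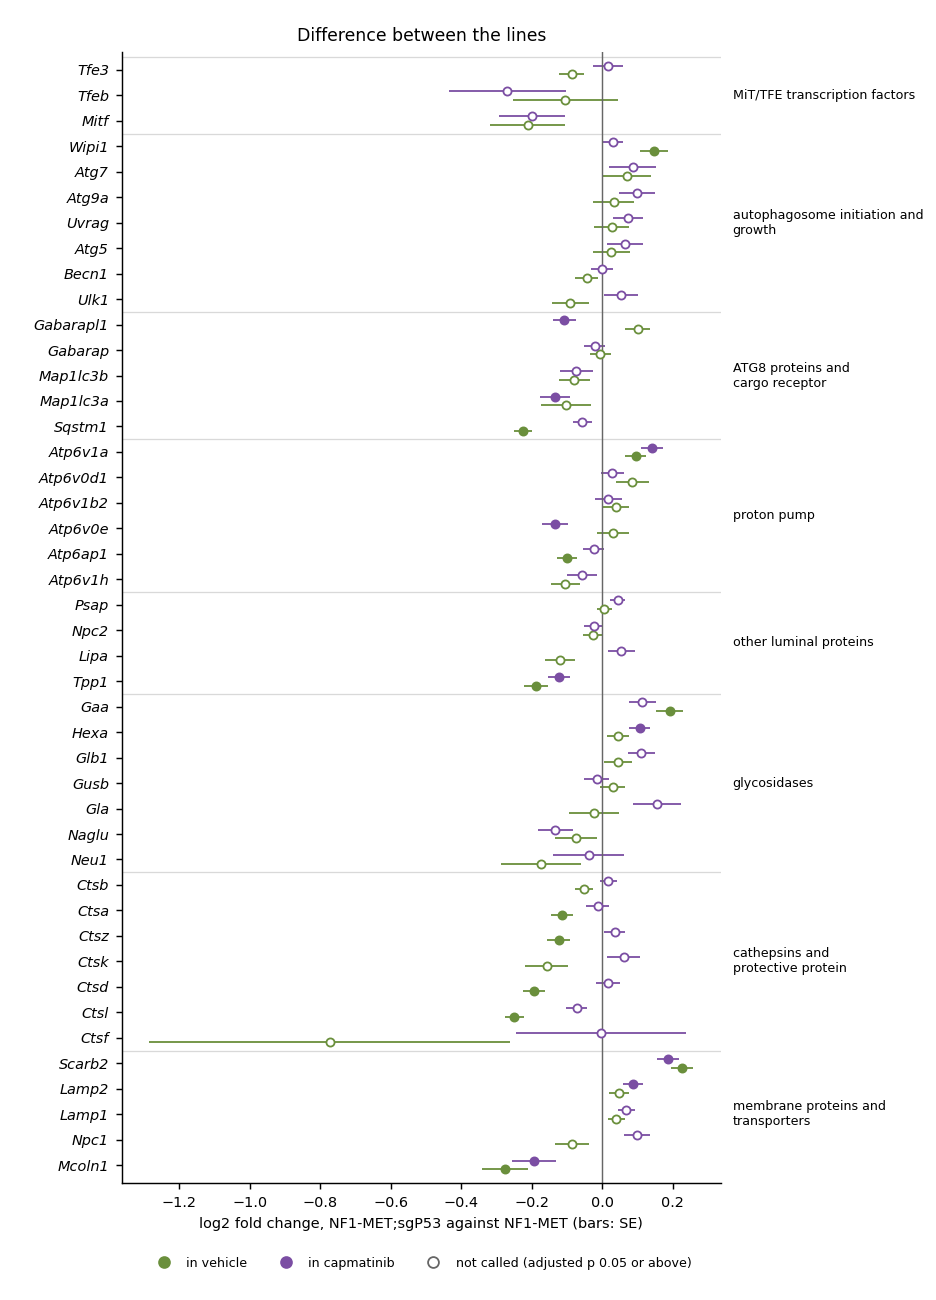
Log2 difference of NF1-MET;sgP53 from NF1-MET for the 44 tested genes, grouped by role, in vehicle (green) and in capmatinib (purple). Bars are standard errors, filled points are called at an adjusted p under 0.05, Ctsf at under 2 CPM has the widest bars, and Scarb2 lies to the right of 0 and Mcoln1 to the left in both treatments.

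An interaction term fitted to the 8 libraries asked whether the change after capmatinib differed in NF1-MET;sgP53. It was called for 5 of the 44 genes, where 9.71% of all genes tested were called (3.85% above 0 and 5.86% below), so the share of the list, 5 of 44, was near that of all genes. The response was higher in NF1-MET;sgP53 for Ctsd (0.19, SE 0.05, adjusted p = 0.00718), Ctsl (0.16, SE 0.04, adjusted p = 0.0160) and Sqstm1 (0.15, SE 0.04, adjusted p = 0.00842). It was lower for Gabarapl1 (-0.23, SE 0.05, adjusted p = 0.00306) and Atp6v0e (-0.18, SE 0.06, adjusted p = 0.0408). For Ctsl this means a smaller fall, from a lower vehicle level, so that the capmatinib levels of the lines (378 and 375 against 368 and 347 CPM) lay closer than the vehicle levels.

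With library totals none of the 5 was called, while all genes went from 558 above 0 and 849 below to 192 and 123. Without Gm42418, 6 genes of the list were above 0 and 1 below, while all genes went to 873 and 612. With single libraries left out, the median of the list was 0.023 to 0.053. The call of Atp6v0e was then lost in every case except without the second vehicle library of NF1-MET. For the other 39 genes the difference did not pass the test. Among them, Ctsk was at 0.20 (SE 0.08), Npc1 at 0.17 (SE 0.06), Lipa at 0.15 (SE 0.06) and Wipi1 at -0.14 (SE 0.04, adjusted p = 0.0555). For the strongly raised genes Map1lc3a and Gabarap the estimates were -0.05 (SE 0.08) and -0.04 (SE 0.04).

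A list of 15 autophagy and lysosome genes that have been described as p53 targets shares Ulk1, Uvrag, Atg7, Ctsd, Tpp1 and Gaa with the 45. After capmatinib, 12 of the 15 were higher in NF1-MET, and 13 were in NF1-MET;sgP53, with none lower in either, which is 80.0% and 86.7% where 35.5% and 34.2% of all genes were higher. In vehicle, NF1-MET;sgP53 had 2 of them above NF1-MET and 4 below (13.3% and 26.7%, against 10.9% and 12.3% of all genes). Under capmatinib these counts were 1 and 1 (6.67% each, against 5.94% and 6.34%). Dram1, which codes for the lysosomal membrane protein damage-regulated autophagy modulator, was at 2.42 and 2.86 CPM in NF1-MET vehicle and 4.86 and 5.38 in NF1-MET;sgP53 vehicle, a difference of 0.94 (SE 0.14, adjusted p = 3.71e-05). It rose with capmatinib by 1.80 (SE 0.12) to 9.47 and 9.19 CPM in NF1-MET and by 1.15 (SE 0.10) to 10.6 and 12.2 CPM in NF1-MET;sgP53, and the interaction was -0.66 (SE 0.16, adjusted p = 0.00903).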

How the data were processed

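Poly(A) RNA libraries from 8 cultures (KAPA mRNA HyperPrep) were sequenced from both ends by the authors. Per the submitters' processing notes, bcl2fastq 1.9.0, Trim Galore 0.4.2, FastQC 0.11.7 and STAR 2.5.2b were used with the mm10 genome, and the deposited values are raw counts per gene from STAR. Strand setting and annotation release are not given in the sources used here, so reads of overlapping genes on opposite strands may be shared. Positions came from GENCODE annotation, in which 50376 of 50600 identifiers were found, and promoter sequences from RefSeq (GRCm38.p6).

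Genes reaching 10 counts in 2 or more of the 8 libraries were kept. Each comparison was fitted to all of these genes on its own 4 libraries (8 for the interaction) with edgeR 4.0.16 in R 4.3.3, using TMM factors, the original form of the quasi-likelihood F-test, and Benjamini-Hochberg adjustment over all genes tested (threshold 0.05). Standard errors follow from the log2 fold change and F. The biological coefficient of variation was 2.34% to 4.28%. Replicates differed by 1.54 to 1.86 times their sampling noise (median squared difference), so none was a duplicate deposit. CPM were scaled by TMM over the 8 libraries.

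Alternatives were no count minimum, 10 counts in 7 or more libraries, DESeq2 1.42.0 size factors, library totals, Gm42418 left out, the Wald test of DESeq2, the bias-adjusted test of edgeR, all libraries in 1 model, the replicate number as a block, and each library left out in turn. With a library left out, all remaining libraries were fitted in 1 model, so these fits differ from those on 4 libraries in that too. The scripts were tested on simulated data. Every listed gene may be named with its fold change. Levels in every library were given for Tfeb, Tfe3, Mitf, Lamp1, Ctsd, Sqstm1, Map1lc3b, Trp53 and up to 5 largest rises and 5 largest falls per comparison (at least 10 CPM, groups not overlapping). Further pathway genes were named at an absolute log2 fold change of at least 1 and at least 10 CPM, up to 4 per list, besides Ulk2, Sesn1, Sesn2, Dram1, Tfec and Gpnmb. Lamp2, Gaa, Psap, Ctsf, Scarb2 and Gap43 have levels by library chosen after their values were seen, as were Csf1r, Nprl3, Rptor, Rragd, Ctsh and Dnase2a as genes to name. The 45 genes, the further lists and the tests were chosen with earlier results of these data known.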

Additional observations from a re-analysis of the deposited data

Results flagged for a closer look

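For 5 genes the response to capmatinib differed between NF1-MET;sgP53 and NF1-MET by an interaction test, a share near the 9.71% of all genes tested that were called. The log2 differences, as NF1-MET;sgP53 minus NF1-MET, were 0.19 for Ctsd, 0.16 for Ctsl and 0.15 for Sqstm1, and -0.18 for Atp6v0e and -0.23 for Gabarapl1. Ctsd, Ctsl and Sqstm1 were lower in NF1-MET;sgP53 in vehicle (-0.19, -0.25 and -0.23) and near the NF1-MET level in capmatinib (0.02, -0.07 and -0.06). These values share libraries with the interaction, so they describe the same difference. With library totals none of the 5 was called, and otherwise Gabarapl1 kept its call in every setting tried. With single libraries left out, Ctsl was lost without the first vehicle or second capmatinib library of NF1-MET and without the second vehicle or first capmatinib library of NF1-MET;sgP53, Sqstm1 without the first vehicle or second capmatinib library of NF1-MET, and Ctsd without the first capmatinib library of NF1-MET. Atp6v0e was lost in every setting that left out a library except the one without the second vehicle library of NF1-MET. Without Gm42418, 4 of the 5 calls were kept and that of Atp6v0e was lost, as it was without the count minimum, with DESeq2's size factors and with its Wald test. The parts of the exon overlaps of Ctsd, Ctsl, Sqstm1 and Gabarapl1 in these values were not tested, and that of the vector cannot be told apart from the other differences between the lines.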

How the results depend on the processing

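After capmatinib, all 30 rises of NF1-MET, and 31 of the 33 of NF1-MET;sgP53, were kept in every setting other than library totals, and 20 in each line were kept in all 13 settings (Ctsf was not tested at the stricter count minimum). With library totals the genes called in NF1-MET were 20 higher and 9 lower (median 0.10), in NF1-MET;sgP53 20 higher and 3 lower (0.21), for the lines in vehicle 3 and 1 (0.0078), in capmatinib 1 and 0 (0.13) and for the interaction 0 and 0 (0.10). All genes split 3508 and 6381, 3260 and 4933, 1280 and 743, 537 and 129, and 192 and 123 in the same order. Signs reversed there for Ctsb (-0.061), Ctsd (-0.00035), Ctsz (-0.056), Glb1 (-0.022), Scarb2 (-0.16), Npc2 (-0.080) and Atp6ap1 (-0.13) in NF1-MET, where Scarb2 and Atp6ap1 were called lower. In NF1-MET;sgP53 they reversed for Npc2 (-0.018), Atp6ap1 (-0.00018), Gabarapl1 (-0.035) and Becn1 (-0.011), and between the lines in capmatinib for Gabarapl1 (0.0078). The cause was not tested.

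DESeq2's Wald test gave 2 lower genes in NF1-MET (all genes 4277, against 5029 with edgeR's test). It gave 2 higher and 5 lower between the lines in vehicle (all genes 833 and 1100, against 1580 and 1775). In capmatinib it gave 2 and 0 (all genes 436 and 434, against 860 and 918), and 1 below 0 for the interaction (all genes 461, against 849). Without the count minimum, 2 and 0 genes were called between the lines in capmatinib (all genes 515 and 555) and 1 below 0 in the interaction (all genes 628). DESeq2's size factors also gave 1 below 0 there (all genes 730), and leaving out Gm42418 gave 6 above and 1 below (all genes 873 and 612). The bias-adjusted test gave 3 lower genes between the lines in capmatinib, where all genes lower stayed at 918. Leaving out 1 library gave 2 to 3 lower genes and medians of 0.29 to 0.33 in NF1-MET, 5 to 8 lower genes and medians of -0.045 to 0.0075 between the lines in vehicle, 2 to 4 higher and 0 to 2 lower in capmatinib, and 1 to 5 above and 1 to 2 below 0 for the interaction; a lone library was assumed to vary like the other groups.

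Deviations of same-numbered replicates correlated at -0.05 to 0.10, so they had little in common. This cannot show whether same-numbered cultures were handled together. With the replicate number as a block, 30 genes were higher and 5 lower in NF1-MET, 32 and 4 for NF1-MET;sgP53, 5 and 10 and then 3 and 5 between the lines in vehicle and in capmatinib, and 3 and 2 for the interaction. Precision is limited for genes at a few CPM, such as Tfeb and Ctsf.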

Other observations

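Of genes in the same pathways that are not among the 45, 3 gave further values. Gpnmb, a lysosomal glycoprotein gene often read as a target of TFE factors, was at 4.74 and 4.26 CPM in NF1-MET vehicle and 9.57 and 9.18 in NF1-MET;sgP53 vehicle, a log2 difference of 1.04 (SE 0.10, edgeR adjusted p = 1.64e-07). It rose by 0.47 (SE 0.12) with capmatinib in NF1-MET and was at -0.02 (SE 0.09) in NF1-MET;sgP53, and the interaction was -0.51 (SE 0.14, adjusted p = 0.0210). Tfec, the fourth gene of the MiT/TFE family, had 0 counts in every library. Sesn3, which also codes for a sestrin, rose by 1.20 (SE 0.04) in NF1-MET and by 0.98 (SE 0.04) in NF1-MET;sgP53.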
